A study of Ovis aries with 2 samples.

Results

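miR-21, miR-26a and miR-191 were examined in small RNA of extracellular vesicles from uterine luminal fluid (ULF), the fluid flushed from the lumen of the ovine uterus. The members were the rows of the deposited mature miRNA table whose precursor name is mir-21, mir-26a or mir-191, without regard to gene copy numbers. This gave 3 mature sequences, 1 for each name, of the 81 listed for ULF vesicles. They were chosen by their read counts in these libraries, as abundant miRNAs outside the large families, so their abundance is described here without a test. The pregnant library came from day 14 Rambouillet ewes mated with a fertile ram and the cyclic library from cyclic ewes on day 14 after estrus. RNA from 4 ewes was pooled into 1 library for each status, so that no replicate shows how far ewes differ. Every difference therefore compares these 2 libraries, not the conditions, and intervals cover counting error only.

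A miRNA is a short RNA that guides Argonaute proteins to messenger RNAs, which are then translated less or degraded, and bases 2 to 8, the seed, largely decide which messages are bound. Vesicles carry miRNAs of the cells that release them. miR-21 is abundant in proliferating and inflamed tissues of human and mouse and represses the tumour suppressor PDCD4. miR-26a, known in human and mouse to repress EZH2, is expressed in most differentiated tissues. miR-191 is transcribed with miR-425 in human and mouse and often serves as a reference in RT-qPCR because its level differs little between many tissues.

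The mature sequences are shown as the authors' cattle reference gives them, in DNA letters from 5′ to 3′. The seed tells which miRNAs could share targets, and reads were compared with these letters, with mismatches and differences in length allowed. The seed is in capitals.
miR-21: tAGCTTATcagactgatgttgact
miR-26a: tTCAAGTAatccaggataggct
miR-191: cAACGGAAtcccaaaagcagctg
No other listed sequence had the seed of any of the 3, whereas 7 other listed sequences had that of let-7a. The closest listed sequence to miR-21 was miR-15b at 9 edits, that to miR-26a was at 9 edits and that to miR-191 at 11 edits, whereas let-7a had a listed neighbour at 1 edit. The miR-21 reference has 24 bases, and only 7 of the 81 references have 24 or more. miR-26a has 22 bases and miR-191 23, with a range of 19 to 25 over all listed references. The GC content was 37.5% for miR-21, 40.9% for miR-26a and 52.2% for miR-191, around a median of 45.5%. miR-191 contains a run of 4 adenines, a length of run that 12 of the 81 references reach. In the sheep annotation of RefSeq each of the 3 has a gene of the same name. MIR21 lies within VMP1, MIR26A within CTDSP2, a phosphatase gene, and MIR191 between NDUFAF3 and DALRD3. The cattle reference has 2 precursors for miR-26a, and only the sheep gene matched by name is placed here.

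The pregnant library held 119605 reads, of which 2809 were counted to a listed mature miRNA, a share of 2.35% (95% Clopper-Pearson interval 2.26 to 2.44%). The cyclic library held 94735 reads and 7921 mature miRNA counts, a share of 8.36% (8.19 to 8.54%). The table lists 54 mature miRNAs for pregnant and 80 for cyclic ULF vesicles, 53 of them in both, and no count under 10. All 8 epithelial markers sought were listed, 5 in both libraries and 3 (miR-141, miR-429 and miR-34c) in the cyclic library alone, with 14.5% of the counts in the pregnant library, against 16.2% in the cyclic library. Of the 5, relative to mature miRNA counts, miR-200c had a ratio of pregnant over cyclic share with an interval above 1 (1.59, 1.27 to 1.97), miR-200a (0.712, 0.543 to 0.924) and miR-200b (0.653, 0.522 to 0.810) had intervals below 1, and the intervals of miR-205 and miR-31 included 1. Over the 53 miRNAs listed in both libraries 18.9% had an interval above 1 and 9.43% one below 1. Of 8 markers of stroma, smooth muscle and vessels 6 were listed, 3 of them in the cyclic library alone, with 2.67% of the counts in the pregnant library, against 2.58% in the cyclic library. Markers listed in the cyclic library alone add nothing to the pregnant sums, so the shares of both lists compare unlike sets of markers. Over the whole list, 53 of the 80 miRNAs of the cyclic library were also listed in the pregnant library. Of 3 erythroid markers only miR-451 was listed, with 0.427% of the pregnant and 0.896% of the cyclic counts. Of 4 leukocyte markers only miR-223 was listed, and in the cyclic library alone, with 0.707% of the counts. The paper found miR-223, miR-214 and miR-21 by RT-qPCR in vesicles of both cyclic and pregnant ewes. A miRNA that is not listed for a library is therefore not shown to be absent from it. The part of these cell types in the values below was not tested.

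The 3 miRNAs together made up nearly the same share of mature miRNA counts in both libraries, although the balance among them differed. They had 367 counts in the pregnant library, 13.1% of the total (11.8 to 14.4%), and 1005 in the cyclic library, 12.7% (12.0 to 13.4%). miR-191 had a larger share in the pregnant library, miR-21 a smaller one, and miR-26a nearly the same.

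miR-21 had 131 counts in the pregnant library, 4.66% of mature miRNA counts (3.91 to 5.51%), and 460 counts in the cyclic library, 5.81% (5.30 to 6.35%). miR-26a had 136 counts in the pregnant library, 4.84% (4.08 to 5.70%), and 378 in the cyclic library, 4.77% (4.31 to 5.26%). miR-191 had 100 counts in the pregnant library, 3.56% (2.91 to 4.31%), and 167 in the cyclic library, 2.11% (1.80 to 2.45%). Overlap of such intervals does not show equal shares. The ratios given below compare the shares directly, beside all 53 miRNAs listed in both libraries. All 3 stood above the typical listed miRNA. Against a median listed count of 36 in the pregnant library, miR-26a was 3.78-fold, miR-21 3.64-fold and miR-191 2.78-fold as abundant. Against a median of 46 in the cyclic library, miR-21 was 10-fold, miR-26a 8.22-fold and miR-191 3.63-fold as abundant. The cyclic list is longer and reaches further down, since a count under 10 is not listed. Fewer vesicles that carry a miRNA and fewer copies per vesicle cannot be told apart in these pools.

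**Figure D1:**
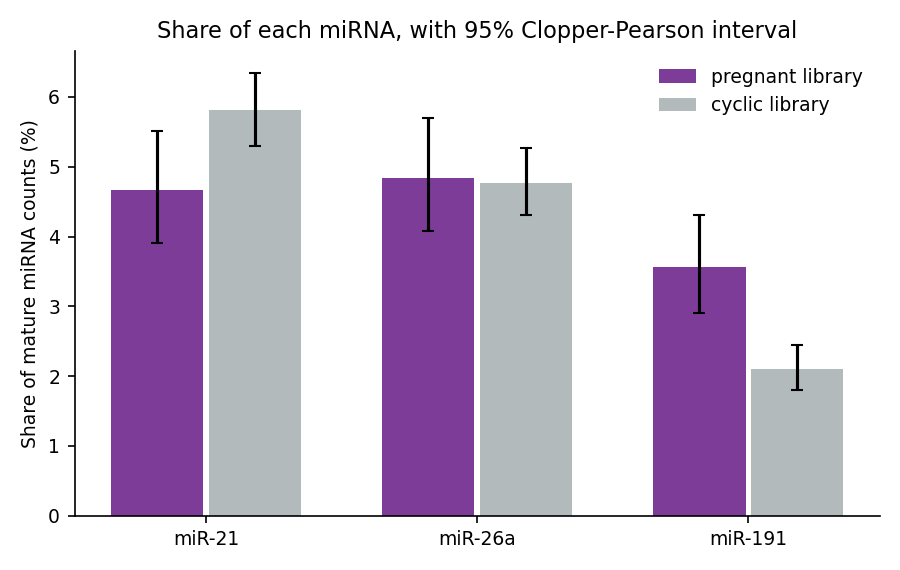
Share of mature miRNA counts (%) of miR-21, miR-26a and miR-191 in the pregnant (purple) and cyclic (grey) library, with bars for 1 pooled library each and 95% Clopper-Pearson intervals. miR-191 stands at 3.56% in the pregnant library, against 2.11% in the cyclic library, miR-21 at 4.66% in the pregnant library, against 5.81% in the cyclic library, and miR-26a at 4.84% in the pregnant library, against 4.77% in the cyclic library.

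The order of the 3 miRNAs differed between the libraries. In the pregnant library miR-26a stood 4th, miR-21 5th and miR-191 10th of 54 listed sequences. In the cyclic library miR-21 stood 3rd, miR-26a 6th and miR-191 15th of 80. In both libraries let-7a, a miRNA of differentiated cells that represses growth genes, stood first with 206 counts in the pregnant library, against 512 in the cyclic library. miR-21 thus reached 63.6% of the count of let-7a in the pregnant library, against 89.8% in the cyclic library. miR-191 reached 48.5% of it in the pregnant library, against 32.6% in the cyclic library.

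Counting error leaves these ranks uncertain. Each of the members was compared with 1 other miRNA at a time, without adjustment for the number of comparisons, so the ranges below are not intervals of a rank. In the pregnant library the count of miR-21 tied with that of miR-200c, and an exact binomial interval could not separate it from the miRNAs of ranks 3 to 9, from miR-23a with 159 counts to miR-10a with 101. In the cyclic library this range was narrower, from let-7a in rank 1 to miR-200b, with 445 counts, in rank 4. miR-26a could not be separated from ranks 3 to 7 in the pregnant library. In the cyclic library miR-23a, with 379 counts against 378 for miR-26a, was the only miRNA that could not be separated from it. The next below, miR-200a, had 289 counts, and miR-26a had 1.31-fold its count (1.12 to 1.53). miR-191 could not be separated from ranks 7 to 11 in the pregnant library, where miR-10a lay directly above it with 101 counts and miR-31, a miRNA of epithelia, directly below it with 75. In the cyclic library it could not be separated from ranks 10 to 21, with miR-30d (197 counts) at the upper and miR-125b (142 counts) at the lower end. There it tied with miR-29a, between miR-31 with 171 and miR-125a with 161 counts.

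**Figure D2:**
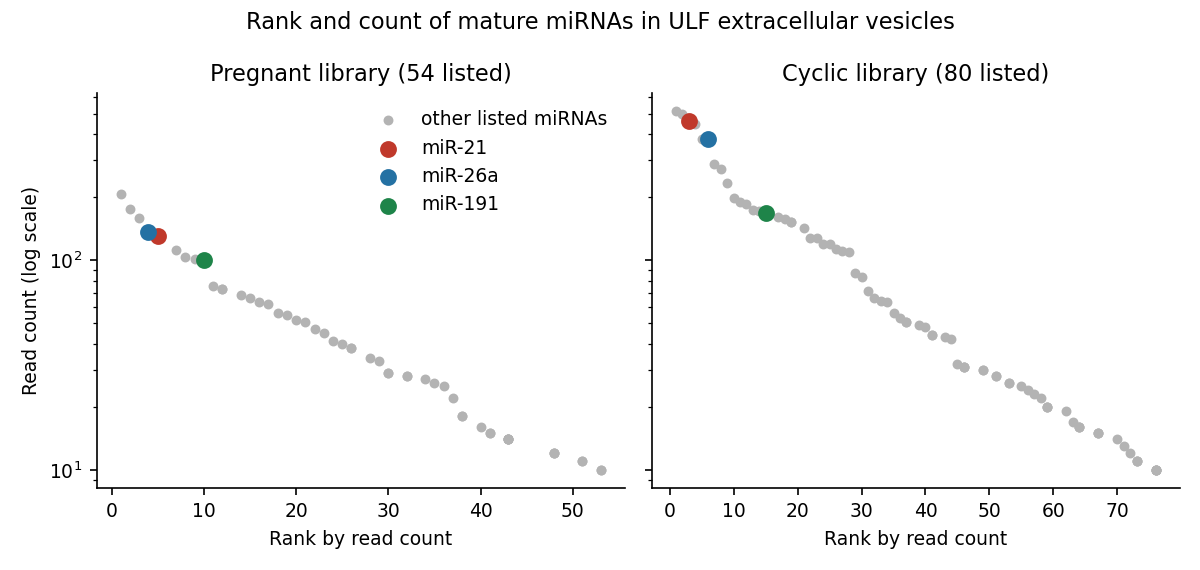
Read count (log scale) against rank for the 54 mature miRNAs listed in the pregnant library (left) and the 80 listed in the cyclic library (right), with miR-21 in red, miR-26a in blue and miR-191 in green. miR-191 stands in rank 10 of the pregnant and rank 15 of the cyclic library, whereas miR-21 stands in rank 5 of the pregnant and rank 3 of the cyclic library.

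The ratio of the share in the pregnant library over that in the cyclic library was 1.69 for miR-191 (exact conditional 95% interval 1.30 to 2.18), 1.01 for miR-26a (0.828 to 1.24) and 0.803 for miR-21 (0.656 to 0.977). The interval of miR-191 lay above 1, that of miR-21 just below 1, and that of miR-26a on both sides of it. None of the 3 reached 2-fold. Of the 53 miRNAs listed in both libraries, 4 (7.55%) had a ratio of at least 2 and 1 (1.89%) a ratio of at most 0.5. An interval above 1, as miR-191 had, was found for 10 of the 53 (18.9%), and an interval below 1, as miR-21 had, for 5 (9.43%). The median ratio of the 53 was 1.17, and they ranged from 0.477 for miR-451 to 3.95 for miR-99b. miR-191 was the 9th highest of the 53 ratios. miR-21 had a lower ratio than 43 of the 52 others, and miR-26a a lower one than 31.

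**Figure D3:**
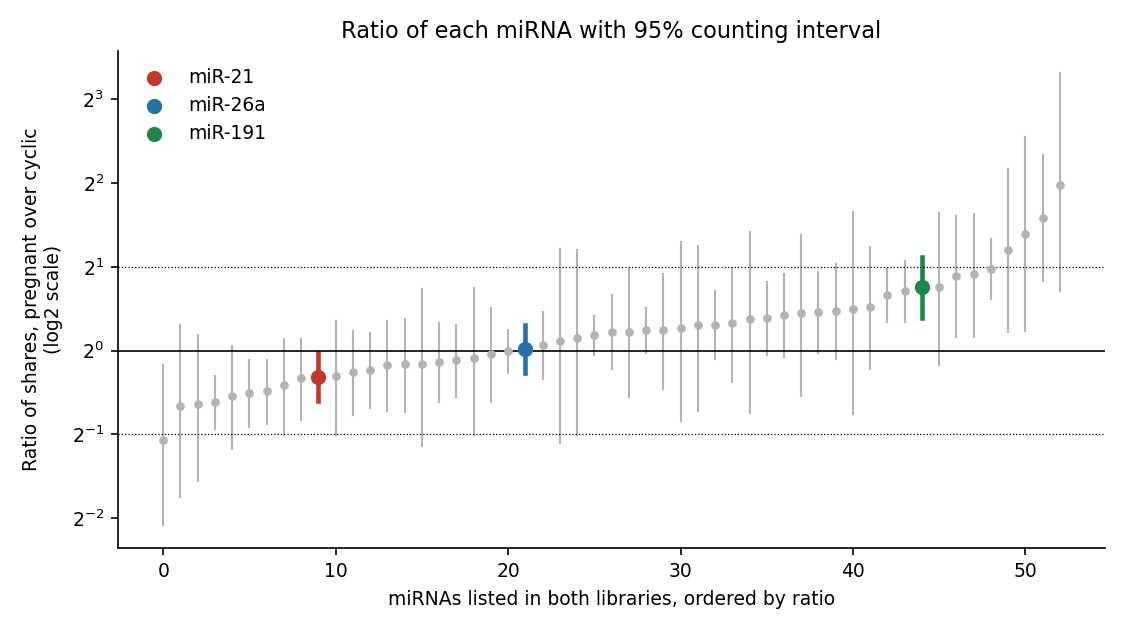
Ratio of shares, pregnant over cyclic (log2 scale), of the 53 miRNAs listed in both libraries in order of their ratio, with 95% counting intervals as vertical lines and dotted lines at 2-fold. miR-191 (green, 1.69) lies above 1, miR-26a (blue, 1.01) near 1 and miR-21 (red, 0.803) below 1, all inside the 2-fold lines.

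These ratios depend on what the counts are divided by, but comparisons among the 3 miRNAs do not. In the pregnant library miR-21 had 1.31 counts for each count of miR-191 (1.00 to 1.72), against 2.75 (2.30 to 3.31) in the cyclic library. The odds of miR-21 over miR-191 in the pregnant library were 0.476 of those in the cyclic library (0.343 to 0.661). miR-26a had 1.36 counts for each count of miR-191 in the pregnant library (1.04 to 1.78), against 2.26 (1.88 to 2.73) in the cyclic library, which gave odds of 0.601 (0.433 to 0.835). miR-21 had 0.963 counts for each count of miR-26a in the pregnant library (0.752 to 1.23), against 1.22 (1.06 to 1.40) in the cyclic library. These odds of 0.792 (0.595 to 1.05) could not be told from 1 at this depth. miR-191 therefore gained on both miR-21 and miR-26a in the pregnant relative to the cyclic library, whatever the scaling, as a difference between 2 libraries.

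The same comparison was made against each of the other 52 miRNAs listed in both libraries. The count of miR-191 was higher in the pregnant library relative to 23 of the 52, with an interval of the odds above 1, and lower relative to none. It could not be separated from the remaining 29. miR-21 was higher relative to none and lower relative to 20. miR-26a was higher relative to 4 and lower relative to 10. These intervals were not adjusted for their number and share the counts of the member. They were not computed for the other listed miRNAs, so these numbers have no background. High counts, by which the 3 miRNAs were chosen, also narrow such intervals.

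Divided by annotated reads or by mature counts without the 3 miRNAs, all ratios changed little. With edgeR's TMM the ratio of miR-191 was 1.52 (1.17 to 1.95) and that of miR-21 0.721 (0.589 to 0.877). With DESeq2's size factors they were 1.44 (1.12 to 1.86) for miR-191 and 0.687 (0.561 to 0.836) for miR-21. miR-26a had a ratio of 0.911 (0.743 to 1.11) with TMM, 0.868 (0.708 to 1.06) with size factors and 0.982 (0.801 to 1.20) with annotated reads, so that its direction changed while its interval included 1. Divided by all reads, the 3 miRNAs were all lower in the pregnant library, at 8.36 counts of miR-191 per 10000 reads against 17.6 in the cyclic library, which gave 0.474 (0.366 to 0.611) for miR-191. On this scale the ratio of miR-26a was 0.285 (0.233 to 0.348) and that of miR-21 0.226 (0.184 to 0.274). Relative to all reads 46 of the 53 miRNAs had a ratio of at most 0.5, and this scaling shifted every log2 ratio by -1.83.

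**Figure D4:**
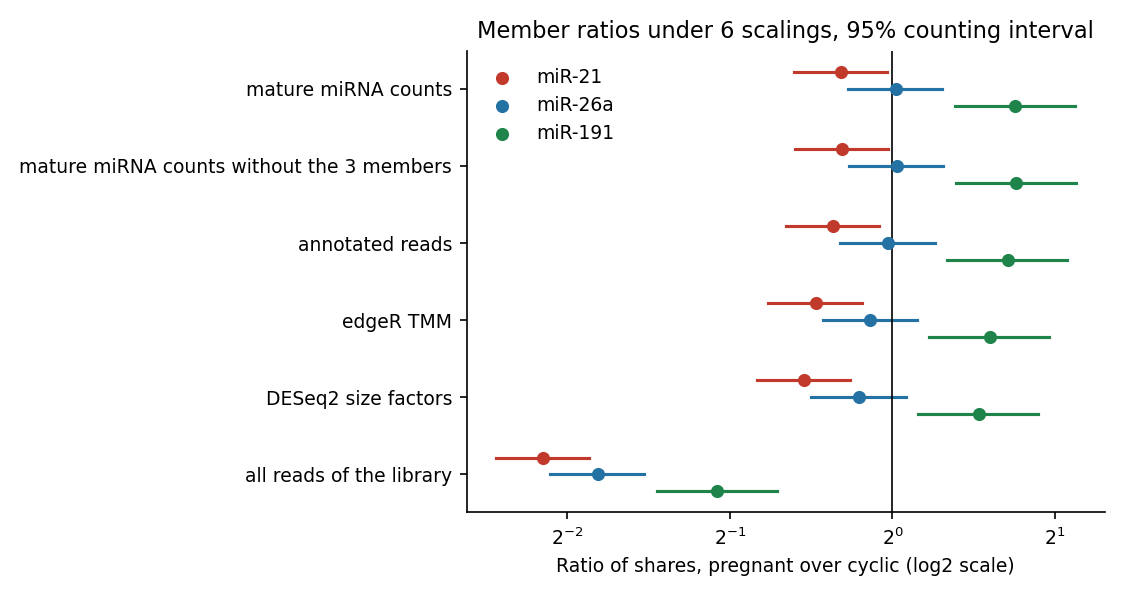
Ratio of shares, pregnant over cyclic (log2 scale), of miR-21 (red), miR-26a (blue) and miR-191 (green) under 6 scalings, with 95% counting intervals as horizontal lines. The order of the 3 is the same in each row, and relative to all reads of the library all 3 lie below 1, at 0.226, 0.285 and 0.474.

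Likeness to other miRNAs was measured as the distance of log2 shares over the 2 libraries, a description from 2 points for each miRNA. miR-191 was most like miR-10a (distance 0.061), a miRNA encoded in a Hox gene cluster, with 101 counts in the pregnant library, against 174 in the cyclic library. Next came miR-125a (0.17), with 112 counts in the pregnant library, against 161 in the cyclic library, and miR-31 (0.42). The ratio of miR-10a was 1.64 (1.27 to 2.10) and that of miR-125a 1.96 (1.53 to 2.51). miR-21 was most like miR-26a (0.29), followed by miR-200b (0.35) and miR-23a (0.40). miR-200b, an epithelial miRNA, had 103 counts in the pregnant library, against 445 in the cyclic library. miR-26a was most like miR-23a (0.23), with 159 counts in the pregnant library, against 379 in the cyclic library.

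miRNAs with related roles were few or varied in direction. The seed partner miR-26b, the human miR-21 seed partner miR-590 and the cluster partner miR-425 were not listed in either library. Of 9 miRNAs used as RT-qPCR references, 8 names were listed as 9 sequences, 7 of them in both libraries. None of the 7 reached 2-fold, but of the 53 miRNAs only 7.55% were at least 2-fold higher and 1.89% at least 2-fold lower. The absence of such a ratio therefore does not set the 7 apart. A sequence of miR-423 was listed in the pregnant library alone with 14 counts, and miR-93 in the cyclic library alone with 13. Of the 7, 2 had an interval above 1, against 18.9% of the 53, namely miR-191 itself and, as 1 of the 6 others, miR-24, whose ratio was 1.88 (1.12 to 3.11) but 1.61 (0.960 to 2.66) with DESeq2's size factors. Among the others let-7a had a ratio of 1.13 (0.960 to 1.34), miR-16a of 0.910 (0.650 to 1.26), miR-16b of 0.854 (0.621 to 1.16), miR-103 of 0.633 (0.297 to 1.23) and the other sequence of miR-423 of 1.36 (0.684 to 2.60). The median log2 ratio of the 7 was 0.18, against 0.22 over the 53 miRNAs, and -0.04 with size factors. The ratios of the 7 thus spread from 0.633 to 1.88.

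Of 9 miRNAs tied to STAT3 or NF-kB signalling in human or mouse, 3 were listed. Beside miR-21 these were miR-125b, with a ratio of 1.31 (0.964 to 1.77), and miR-9, which reached 2-fold with 18 counts in the pregnant library, against 22 in the cyclic library (2.31, 1.17 to 4.51). With size factors the ratio of miR-9 was 1.97 (0.998 to 3.86). Over the 53 miRNAs listed in both libraries 7.55% had a ratio of at least 2. An interval above 1, as miR-9 had, was found for 18.9% of them, and one below 1, as miR-21 had, for 9.43%. miR-146a, miR-146b and miR-155, which follow NF-kB activity in human and mouse leukocytes, were not listed.

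The reads behind the 3 miRNAs differed in how they matched the cattle reference. An exact match has all letters of the mature reference and its exact ends, and the other counted reads differ in length or by mismatches. None of the 131 pregnant and 460 cyclic counts of miR-21 was an exact match. The interval of this share reached up to 2.78% in the pregnant library, against 0.799% in the cyclic library. Likewise none of the 136 pregnant and 378 cyclic counts of miR-26a was exact, with an interval up to 2.68% in the pregnant library, against 0.971% in the cyclic library. miR-191 had 33 exact matches of 100 counts in the pregnant library, 33.0% (23.9 to 43.1%), and 35 of 167 in the cyclic library, 21.0% (15.1 to 27.9%). Over all listed miRNAs 11.0% of the counts were exact in the pregnant library, against 9.80% in the cyclic library. None of the 7 references of 24 or more bases, miR-21 among them, had an exact match, against 23 of the 74 shorter references. All 7 end in thymine, however, and of the 36 listed references with this last base only 2 had any exact match. Length can therefore not be told apart from the last base in these 7, and its part was not tested.

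The exact share of miR-191 was larger in the pregnant library, with odds of 1.85 (1.02 to 3.37) relative to the cyclic library, a comparison chosen after the values were seen. Relative to mature miRNA counts its exact matches had a ratio of 2.66 (1.60 to 4.41), and its other reads, 67 in the pregnant library, against 132 in the cyclic library, one of 1.43 (1.05 to 1.93). Both kinds of reads thus gave a higher share in the pregnant library. In 13 other miRNAs with exact matches, listed in both libraries, 39.1% of the counts were exact in the pregnant (35.5 to 42.8%) and 35.5% in the cyclic library (33.3 to 37.8%), with odds of 1.17 (0.970 to 1.40). These sums include let-7b, with 0 exact matches of 176 pregnant and 1 of 499 cyclic counts. The median exact share of the 13 was 60% in the pregnant library, against 53.3% in the cyclic library. The odds from summed counts thus also depend on which of the 13 hold the counts.

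All counts of miR-21 and of miR-191 came from reads assigned to 1 precursor only. miR-26a is produced from 2 precursors with the same mature sequence, and only 2 of its 136 pregnant counts and 2 of its 378 cyclic counts could be assigned to 1 of them. Which miR-26a gene was the source can therefore not be told.

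The 3 references also differ in their last base, with which the exact matches went together over the whole table. The references of miR-21 and miR-26a end in thymine and that of miR-191 in guanine. Of the 36 listed references that end in thymine 2 had any exact match, let-7b and miR-92a, against 16 of the 18 that end in adenine. Of the 18 that end in guanine 2 had any, miR-191 and miR-205.

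**Figure D5:**
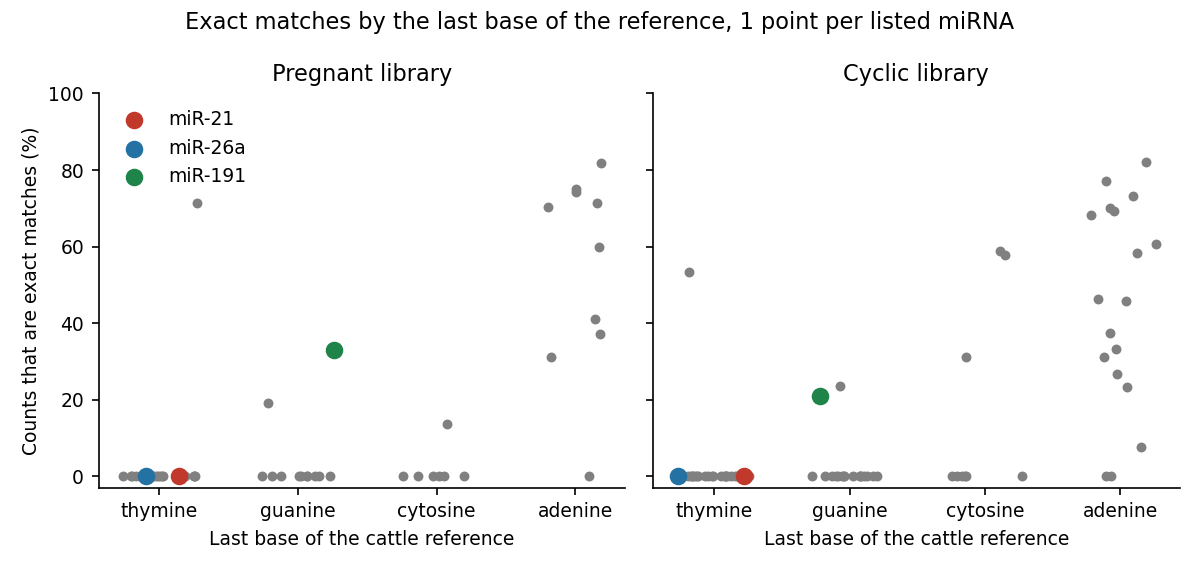
Share of counts that are exact matches (%) by the last base of the cattle reference, with 1 point per listed miRNA and horizontal scatter for visibility, in the pregnant (left) and cyclic (right) library. miR-21 (red) and miR-26a (blue) lie at 0 among references that end in thymine, and miR-191 (green) at 33.0% in the pregnant library, against 21.0% in the cyclic library among those that end in guanine.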

How the data were processed

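Small RNA of ULF vesicles was sequenced by the authors on the Ion Torrent platform, in 1 pregnant and 1 cyclic library pooled from 4 ewes each. Vesicles had been precipitated with ExoQuick-TC. Reads of 15 to 55 bp were compared by the authors with cattle miRNAs of miRBase release 19 in CLC Genomics Workbench (version not given in the sources used here), which summed reads per mature sequence and listed sums of 10 or more. The deposited values are read counts, not normalized by the authors. The deposited annotation reports gave the numbers of reads. The authors' columns of ranges and fold changes were not used. The 2 deposited tables held the same values in 10 of 10 measures compared. Another 6 columns belong to no sample mapped here and were not used.

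Each count was divided by the total of 2809 pregnant or 7921 cyclic mature miRNA counts, at 119605 reads in the pregnant library, against 94735 in the cyclic library. Shares have Clopper-Pearson and ratios exact conditional binomial 95% intervals, and odds between miRNAs are conditional estimates with exact intervals. Since reads carry no molecular identifiers and are not independent molecules, intervals and limits cover counting error only. For a count of 0 exact matches the upper end of the Clopper-Pearson interval is given. With 1 library per status no test was made. Scalings tried were all reads, annotated reads, counts without the 3 miRNAs, edgeR 4.0.16 (TMM) and DESeq2 1.42.0 (size factors) in R 4.3.3. Exact matches, reads of 1 precursor, grouping by name and minimums of 20 and 50 counts were other alternatives. Python 3.11.15, NumPy 2.4.6, pandas 2.3.3, SciPy 1.17.1 and matplotlib 3.10.9 were used, and the interval functions were tested on simulated data.

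The members and lists were chosen with earlier results of these data known. Named besides the members were their neighbours in rank, the 3 miRNAs nearest in log2 shares, seed and cluster partners, lists of RT-qPCR references and of STAT3 or NF-kB miRNAs, and cell type markers. The result of another list is not reported here. The sheep assembly ARS-UI_Ramb_v3.0 served for gene names and neighbours only, and all 3 members matched. No genome build is named for the counts, so no coordinates are given.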

Additional observations from a re-analysis of the deposited data

How the results depend on the processing

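Relative to all reads, the ratios were 0.226 for miR-21, 0.285 for miR-26a and 0.474 for miR-191, no miRNA was at least 2-fold higher in the pregnant library and 46 were at least 2-fold lower, in place of 4 and 1. The shares of all reads were 0.110% in the pregnant library, against 0.486% in the cyclic library for miR-21, 0.114% in the pregnant library, against 0.399% in the cyclic library for miR-26a, and 0.0836% in the pregnant library, against 0.176% in the cyclic library for miR-191. The share of reads counted to a miRNA was 2.35% in the pregnant library, against 8.36% in the cyclic library. Under the other scalings of all counts miR-191 kept a ratio above 1 and miR-21 one below 1. With exact matches only, miR-191 had a ratio of 2.38 (1.43 to 3.94) and stood in rank 4 of the pregnant and rank 7 of the cyclic library, and the other 2 had no exact match and no value. With reads of 1 precursor only, miR-26a rested on 2 counts in each library, with a ratio of 2.80 (0.203 to 38.6), odds of 0.286 (0.0205 to 3.97) for miR-21 over miR-26a and of 1.67 (0.119 to 23.3) for miR-26a over miR-191. The number of miRNAs at least 2-fold higher was 2 with a minimum of 20 counts and 0 with 50. Of the 53 miRNAs, 7 had an interval above 1 and 10 one below 1 with DESeq2's size factors, in place of 10 and 5, and 10 and 8 with edgeR's TMM. Adding counts up by name left every rank of the 3 miRNAs the same. No paired analysis was possible because each status has 1 library, and no replicate could be left out. The pregnant values rest on 100 to 136 counts for each of the 3 miRNAs and the cyclic values on 167 to 460, which limits their precision. The spread between libraries of 1 status cannot be estimated here.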

Other observations

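Over all 81 listed references the last base went together with exact matches, a pattern noticed after the values were seen. References that end in thymine held 10 exact matches among 1447 pregnant counts (0.691%) and 9 among 4178 cyclic counts (0.215%). References that end in adenine held 256 among 505 pregnant counts (50.7%) and 642 among 1467 cyclic counts (43.8%). Exceptions among them were miR-29a, with 47 pregnant and 167 cyclic counts, and miR-101, with 23 cyclic counts, which had no exact match. Guanine ends gave 5.78% in the pregnant library, against 2.75% in the cyclic library. Of their exact matches miR-191 held 33 of 38 in the pregnant library and 35 of 47 in the cyclic library. Cytosine ends gave 2.01% in the pregnant library, against 13.8% in the cyclic library, where 30 of the 78 exact matches came from miR-361 and 11 from miR-339b, which are not listed in the pregnant library. Over miRNAs listed in both libraries, an alternative chosen after the values were seen, cytosine ends gave 2.01% in the pregnant library, against 7.49% in the cyclic library. All of these exact matches, 4 pregnant and 37 cyclic, came from miR-27b. The references of 3 miRNAs are shown with the last base in capitals, because they end in different bases or depart from the pattern. let-7a had no exact match among 206 pregnant and 512 cyclic counts, miR-200c had 92 of 131 in the pregnant library, against 159 of 233 in the cyclic library, and miR-92a, an exception, had 10 of 14 in the pregnant library, against 8 of 15 in the cyclic library.
let-7a: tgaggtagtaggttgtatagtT
miR-200c: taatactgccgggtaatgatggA
miR-92a: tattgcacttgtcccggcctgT
miR-21, miR-26a and most let-7 members thus entered the table through reads that differ from the reference in length or by mismatches. The authors' minimum acted on the summed counts, since exact counts below 10 are listed. The cause of this pattern was not tested, and the read sequences were not analysed here.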
